A study of Caenorhabditis elegans with 2 samples.

Results

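Chromosome III held 4585 of 30000 regions (15.3%) ranked by ALR-1-GFP signal in Caenorhabditis elegans larvae, a list in which peaks and background are mixed. Its share was higher among the strongest regions than among the weak ones. ALR-1-GFP binding was mapped by chromatin immunoprecipitation and sequencing (ChIP-seq). The members are all regions of the list made from both replicates pooled that lie on chromosome III. They were chosen by their place in that list and ranked by its signal value, the number that the authors' peak caller gave to each region relative to a control. The members are therefore selected on the readout, and every rank and share below is a description of these lists with no test. The replicate lists, ranked by their own signal, held 4717 members on III in replicate 1 and 4439 in replicate 2. Of the 182 regions that the authors kept after filtering on the irreproducible discovery rate (IDR), 52 lay on III.

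The animals were whole L1 larvae of mixed sex, 6 hours old and starved after bleaching. All were of strain OP362, which carries the unc-119(tm4063) allele, itself on III, and the integrated transgene wgIs362, which expresses ALR-1 with GFP and FLAG at its C-terminal end. The labels describe immunoprecipitation with an antibody against GFP, while their antibody field names alr-1. There was 1 group with 2 biological replicates, so no condition can be compared with another, and no larvae without the tagged protein were analysed here. Whole larvae were used, so the cells that a region's signal came from cannot be told apart. Read depth is unknown from lists of this kind, and the intervals below are exact 95% binomial intervals for the counts of regions or genes, with no part for the reads.

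ALR-1 is a transcription factor of the aristaless family with a paired-class homeodomain, a DNA-binding fold that recognises AT-rich sequence around TAATTA. In worms it is known for its part in the development of touch receptor neurons and GABA motor neurons. Worm autosomes have a gene-rich centre with little recombination, flanked by arms that hold more repeats and fewer conserved genes, and III is the shortest of them.

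The strongest regions of III did not share 1 kind of sequence. The 201 bases around 5 summits are shown because they span that range, from AT-rich intron to GC-rich coding exon. Each is read 5′ to 3′ on the plus strand of the ce11 build, and capitals mark the letters TAATTA or the letters AGGC and their reverse complement GCCT. The first is in an intron of hpo-28 at III:5707646-5707846, the next within zip-2 at III:833205-833405, then within spe-6 at III:11505697-11505897, both with a gene's 5′ end near enough to be classed as promoter regions below, a coding exon of atp-2 at III:5229627-5229827, and the end of a coding exon of aakg-1, a gene on the minus strand, at III:12562891-12563091.
hpo-28, rank 4: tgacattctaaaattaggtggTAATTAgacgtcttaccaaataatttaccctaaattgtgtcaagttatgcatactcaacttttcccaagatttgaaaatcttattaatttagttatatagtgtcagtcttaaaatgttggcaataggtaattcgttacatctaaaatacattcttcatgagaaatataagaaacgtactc
zip-2, rank 5: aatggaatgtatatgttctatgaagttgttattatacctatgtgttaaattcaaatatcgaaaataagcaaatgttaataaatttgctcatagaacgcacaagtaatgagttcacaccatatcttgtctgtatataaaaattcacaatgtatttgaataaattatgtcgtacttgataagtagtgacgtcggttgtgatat
spe-6, rank 10: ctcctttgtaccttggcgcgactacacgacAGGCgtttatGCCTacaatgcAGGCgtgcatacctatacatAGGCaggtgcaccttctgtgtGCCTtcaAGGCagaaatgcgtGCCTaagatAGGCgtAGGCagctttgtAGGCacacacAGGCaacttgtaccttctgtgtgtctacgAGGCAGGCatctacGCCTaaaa
atp-2, rank 11: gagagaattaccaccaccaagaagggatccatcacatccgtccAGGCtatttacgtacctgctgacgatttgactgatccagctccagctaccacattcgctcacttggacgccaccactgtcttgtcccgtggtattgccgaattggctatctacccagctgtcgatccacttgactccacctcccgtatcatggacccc
aakg-1, rank 24: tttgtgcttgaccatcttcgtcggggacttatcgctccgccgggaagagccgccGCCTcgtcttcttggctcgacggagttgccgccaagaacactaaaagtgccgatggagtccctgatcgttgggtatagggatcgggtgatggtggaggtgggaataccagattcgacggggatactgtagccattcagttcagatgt

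The hpo-28 sequence was 28.4% GC and held the only TAATTA among the 5. The zip-2 sequence was 27.9% GC and had an unbroken run of 12 A or T bases. The spe-6 sequence was 51.7% GC, and AGGC or GCCT occurred in it 14 times. This motif was chosen after that sequence had been read. The median over all 30000 regions was 0 occurrences, and 49 regions (0.163%) had at least as many as the spe-6 region, 6 of them on III. At least 1 occurrence was found in 44.9% of regions of III and in 41.5% of all regions. The atp-2 and aakg-1 sequences were protein-coding, at 53.2% and 55.7% GC, with 1 occurrence each and no TAATTA. Across III, TAATTA lay within 100 bp of the summit in 6 of the 52 IDR regions (11.5%, interval 4.35 to 23.4), in 7.93% of the 227 regions of III among the 1000 highest of the genome, and in 9.32% of the other 4358. On the other autosomes it was found in 5.98% of 117 IDR regions (2.44 to 11.9), 6.8% of 676 regions of the top 1000 and 10.3% of the remainder. TAATTA is its own reverse complement, so 1 count covers both strands.

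The share of III decreased from the highest to the lowest ranks in all 3 lists. In the pooled list III held 28.6% of the regions of rank 1 to 182 (22.1 to 35.7), 21.4% of rank 183 to 1000 (18.6 to 24.4), 17.7% of rank 1001 to 3000 (16.1 to 19.4), 16.7% of rank 3001 to 10000 (15.9 to 17.6) and 14.2% of rank 10001 to 30000 (13.7 to 14.7). In replicate 1 alone the shares were 29.1%, 20.9%, 19.2%, 16.7% and 14.7%, and in replicate 2 alone 23.6%, 19.6%, 16.5%, 15.8% and 14%, in the same order of bins. For comparison, III has 13.7% of the sequence (13783801 bp), 13.2% of the protein-coding genes (2640) and 14.4% of the coding exon bases. The share in the highest bin was thus 2.08 times the share of sequence for the pooled regions, 2.12 times for replicate 1 and 1.72 times for replicate 2. In the lowest bin these ratios were 1.03, 1.07 and 1.02. Over the same bins the other autosomes together kept 64.3% to 69.4% of the pooled regions, and X held 7.14% at the top and 17.7% at the bottom. All shares are parts of 1 total, so the share of III is not separate from the low share of X.

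**Figure D1:**
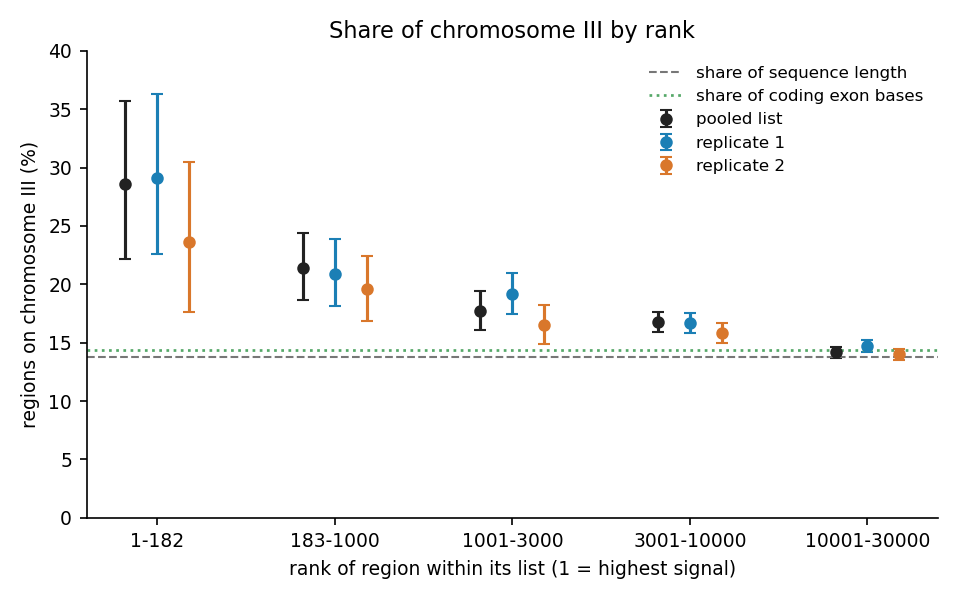
Share of regions on chromosome III (vertical axis, %) by rank within the pooled list and each replicate's own list (horizontal axis). Points are shares, bars are exact 95% binomial intervals, and the lines mark the share of III in sequence length (13.7%) and in coding exon bases (14.4%); the points are highest at rank 1 to 182 and near the lines at rank 10001 to 30000.

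Among the 1000 highest regions, III had the highest density per Mb of sequence of the autosomes, with chromosome I next to it. III held 227 of the pooled top 1000 (22.7%, 20.1 to 25.4), or 16.5 per Mb, against 9.83 per Mb over the 4 other autosomes together. Single autosomes ranged from 15.1 per Mb on I and 12.3 on IV to 7.13 on II and 5.97 on V. In replicate 1 the densities were 16.3 per Mb on III, 14.5 on I, 11.7 on IV, 8.25 on II and 5.88 on V. In replicate 2 they were 14.7 on III, 13.7 on I, 12.5 on IV, 7.66 on II and 6.74 on V. By count alone I and III were equal in the pooled list at 227 each, and in replicate 2 chromosome IV (219) and I (206) held more than III (203). The margin between III and I per Mb was thus similar in size to that between the replicate lists for III, while II and V were well below III in each list.

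The order of the autosomes by top regions was not their order by gene density. III had 192 protein-coding genes per Mb, against 212 on the other autosomes, and V, with the lowest density of top regions, had 239. Per 100 coding genes, III had 8.60 top regions, against 7.89 on I, 6.55 on IV, 3.16 on II and 2.50 on V. Per Mb of coding exon the values were 64 on III, 57.6 on I, 54.3 on IV, 26.4 on II and 22.4 on V. A gene was in reach of a region when a summit fell within 1500 bp before or 500 bp after the gene's 5′ end. By that measure 143 of 2640 coding genes of III were in reach of a top 1000 summit, a background of 5.42%, against 438 of 14602 on the other autosomes, or 3%. Single autosomes had 5.14% on I, 3.78% on IV, 2.20% on II and 1.80% on V, so I was close to III. With any of the 30000 summits, 57.9% of coding genes of III were in reach, against 48.8% on the other autosomes.

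Along III the top regions were densest in the right arm. With the centre taken as the middle 50% of the length and the arms as the remainder on either side, the right arm (III:10337851-13783801) held 80 top regions, or 23.2 per Mb. The centre held 103, or 14.9 per Mb, and the left arm (III:1-3445950) held 44, or 12.8 per Mb. The replicate lists gave the same highest segment, with 22.1 per Mb in the right arm, 16 in the centre and 11 in the left arm in replicate 1, and 18.3, 14.9 and 10.7 per Mb in replicate 2 in that order. In each of the 3 lists the right arm of III had the highest density of the 15 arms and centres of the autosomes. The segment next to it was the left arm of I in the pooled list (18) and in replicate 1 (17.8), and the centre of III in replicate 2 (14.9). The right arm also held 21 of the 52 IDR regions, against 24 in the centre, which is 2 times as long, and 7 in the left arm. The right arm is not gene-rich, at 158 coding genes per Mb, against 227 in the centre and 154 in the left arm. It had 14.7 top regions per 100 coding genes, against 6.59 in the centre and 8.29 in the left arm. The left arm of I was near it in this measure, with 13.1 per 100 coding genes at 138 coding genes per Mb.

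**Figure D2:**
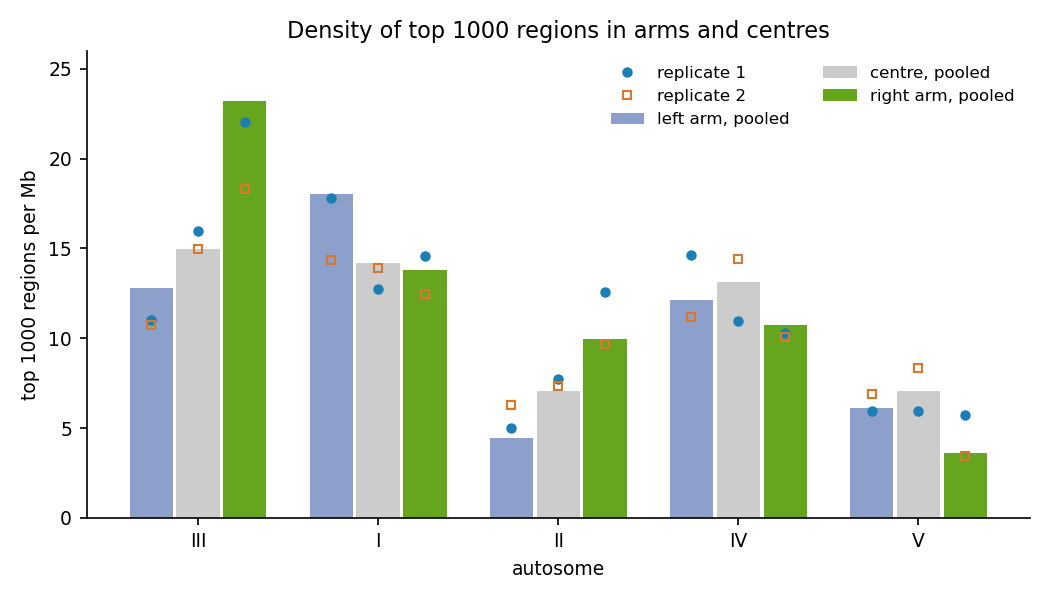
Density of top 1000 regions (vertical axis, regions per Mb) in the left arm, centre and right arm of each autosome (horizontal axis, III first). Bars are the pooled list, points and squares the replicate lists; the right arm of III is the highest segment in each list, at 23.2, 22.1 and 18.3 per Mb.

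The centre held 45.4% of the top regions of III (103 of 227, 38.8 to 52.1), against 51.4% of the remaining regions of III. On the other autosomes it held 51.8% of 676 top regions. In the replicate lists the share of top regions of III in the centre was 49.1% (42.4 to 55.9) and 50.7% (43.6 to 57.8). The remaining regions of III had 51.03% and 51.91% there. The top share was thus the lower one in each list, with the share of the remaining regions inside its interval. This share counts both arms as 1 remainder, although the right arm was denser than the centre in each list and the left arm less dense.

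In 500 kb windows the number of top regions had little relation to the number of genes. The 28 windows of III, of which the last is shorter, held 2 to 17 top regions, 103 to 204 regions of any rank and 47 to 143 coding gene 5′ ends. Spearman's rho between top regions and genes over these windows was 0.10 for the pooled regions, 0.05 for replicate 1 and 0.11 for replicate 2. Between regions of any rank and genes it was 0.29. The other autosomes had rho values of top regions with genes between -0.53 (II, 31 windows) and 0.03 (IV, 35 windows). Windows share a chromosome and neighbours are not independent, so these values are descriptions. Counts of top regions in replicates 1 and 2 had a rho of 0.51 over the same 28 windows of III.

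The replicates were alike in some of the fullest windows and apart in others. The window from 500001 to 1000000, which includes zip-2, held 17 pooled top regions, 10 in replicate 1 and 12 in replicate 2. The window from 9500001 to 10000000, which includes vha-2, held 16, 19 and 11. The window from 12500001 to 13000000, which includes aakg-1 and ssl-1, held 13, 11 and 13. The fullest window of replicate 2, from 8000001 to 8500000, held 11, 9 and 14. The window from 11000001 to 11500000 held 12, 11 and 8, and 6 of its regions passed IDR. In contrast, the window from 10500001 to 11000000 held 15 in the pooled list and 15 in replicate 1 but 4 in replicate 2. That last window lies in the right arm, and it is where the replicates differed most.

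**Figure D3:**
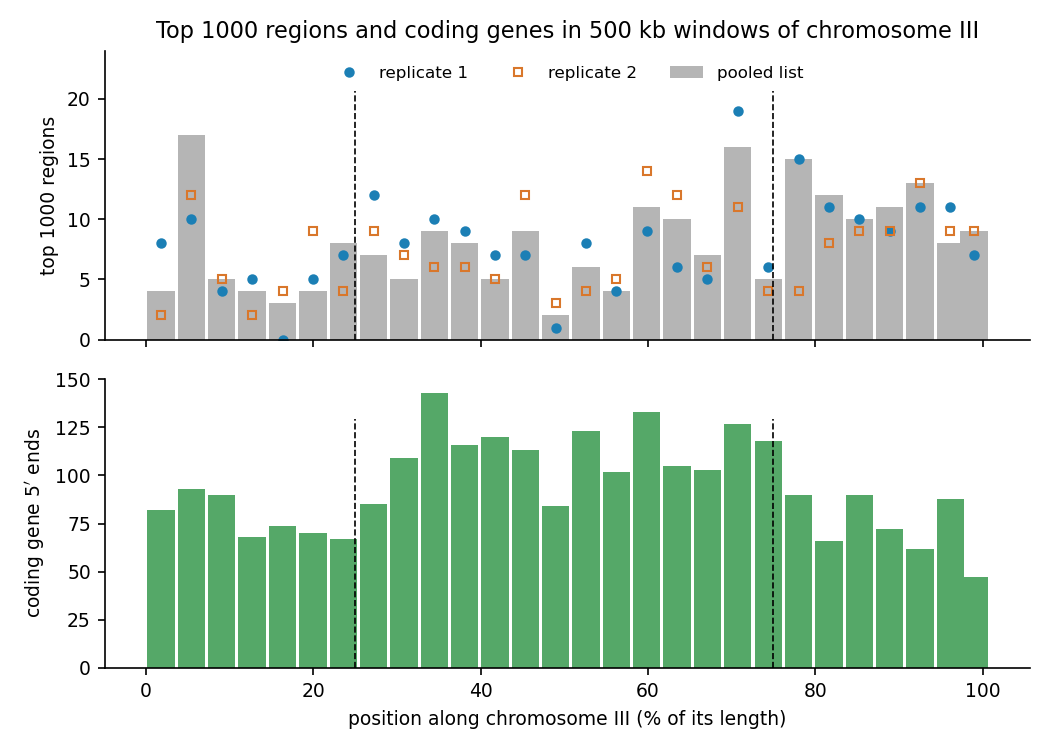
Top 1000 regions (upper panel, count) and coding gene 5′ ends (lower panel, count) in 500 kb windows along chromosome III (horizontal axis, % of its length); dashed lines bound the centre. Bars in the upper panel are the pooled list and symbols the replicate lists; top regions range from 2 to 17 a window and do not follow the gene-rich centre.

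The top regions of III were richer in G and C than its other regions. GC content within 100 bp of the summit averaged 41.2% ± 8.05 (SD over 227 regions) in the top regions of III, against 36.8% ± 7.79 in the remaining 4358. On the other autosomes the top regions averaged 39.6% ± 8.15 (SD over 676 regions). The means for III were 41.3% in replicate 1 and 40.5% in replicate 2, against 40.7% and 38.5% for the other autosomes in those lists. The difference between III and the other autosomes was small against the spread over regions. By rank bin, from the highest to the lowest, the mean on III was 43.0%, 40.7%, 38.7%, 37.7% and 36.2%, against 41.3%, 39.2%, 38.0%, 36.3% and 35.2% on the other autosomes. The chromosomes as a whole differ little, at 35.7% GC for III and 35.5% for the others.

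At like GC, regions of III were more often within the top 1000 than those of the other autosomes as a whole in the pooled list, though not than those of I in every bin. Over 50% GC, 35 of 232 regions of III were in the top 1000 (15.1%, 10.7 to 20.4), against 8.87% of 823 regions on the other autosomes (7.02 to 11). From 35% to 40% GC the shares were 4.63% (3.47 to 6.05) and 2.91% (2.43 to 3.44), the only bin of the pooled list whose intervals did not overlap. In that bin replicate 1 had 3.50% and 2.88%, and replicate 2 had 3.98% and 3.15%, with intervals that overlapped in each. At 30% GC and under the pooled shares were 2.25% and 1.88%. Among single autosomes, I had a higher share than III at 30% GC and under (2.46%) and from 40% to 45% GC (6.51%, where III had 5.86%). From 35% to 40% GC, IV had 4.42%, and over 50% GC, I had 11.5% (7.76 to 16.2) and IV 10.8% (6.63 to 16.3), with intervals that overlapped that of III. II and V were lower, and over 50% GC had 6.33% and 6.59%. III was above the other autosomes together in all 6 GC bins of the pooled list and of replicate 1. In replicate 2 the order was turned round at 30% GC and under, where III had 1.77% and the other autosomes 2.26%. Over 50% GC, replicate 1 had 11.6% on III and 9.46% on the other autosomes, and replicate 2 had 10.9% and 7.85%. In that bin of replicate 1, IV (13.9%) and I (11.7%) were above III. In replicate 2, I had 10.6% and IV 6.02%. Of the 35 top regions of III over 50% GC, 22 lay in the right arm, 7 in the centre and 6 in the left arm. Top regions of the right arm averaged 44.2% ± 8.21 GC, against 39.1% ± 6.97 in the centre and 40.7% ± 8.62 in the left arm (SD over 80, 103 and 44 regions). A higher mean in an arm than in the centre was not particular to III. Top regions averaged 43.5% in the right arm of II, against 37.7% in its centre. In the left arm of V they averaged 43.1%, against 38.5% in its centre, while its right arm was lower, at 35.7%. The remaining regions of III averaged 37.88% in the right arm and 35.98% in the centre.

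**Figure D4:**
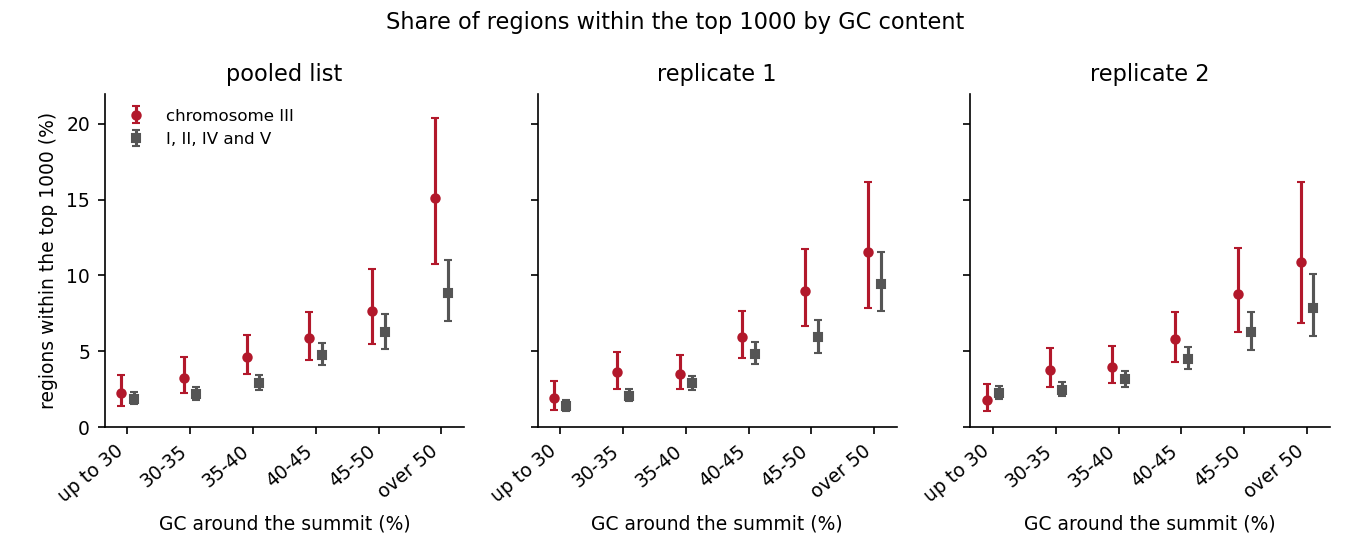
Share of regions that were within the top 1000 (vertical axis, %) by GC content within 100 bp of the summit (horizontal axis, %), for chromosome III and for I, II, IV and V together, in each list. Points are shares and bars exact 95% binomial intervals; the share is highest over 50% GC for III (15.1%, 11.6% and 10.9%) and for the others, and most intervals overlap.

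Coding exons held nearly as many summits of III's top regions as all other classes together. A summit near the 5′ end of a gene of any type (up to 500 bp before it or 100 bp after it) was called promoter, and any other was sorted into UTRs first, then exons, introns and intergenic sequence. Coding exons held 108 of 227 top summits of III (47.6%, 40.9 to 54.3), against 43.0% of 676 on the other autosomes. The shares were 49.6% and 49.3% in replicate 1, and 46.8% and 37.9% in replicate 2. Among single autosomes of the pooled list, I (47.1%) and II (46.8%) were like III, with 43.2% on V and 36.7% on IV. In replicate 1, I (57.3%) and V (50.4%) were above III. In replicate 2 each was below III, with II the nearest at 43.6%. By rank bin of the pooled list, from the highest to the lowest, coding exons held 55.8%, 45.1%, 39.5%, 36.5% and 27.5% of summits on III. Of all coding exon regions of III, 7.42% were in the top 1000 (6.13 to 8.89), against 5.03% on the other autosomes (4.48 to 5.63). Replicate 2 gave 7.16% and 4.73%, and replicate 1 gave 7.20% (5.96 to 8.60) and 5.45% (4.89 to 6.05), with intervals that just overlapped. Chromosome I was like III in this measure, at 6.79% (5.59 to 8.14), with 7.44% in replicate 1 and 5.99% in replicate 2. IV had 5.86% (4.66 to 7.25), while II had 3.98% (2.98 to 5.20) and V had 3.43% (2.58 to 4.45) and these intervals alone did not overlap that of III. Promoters, introns and intergenic sequence had the same order of III over the other autosomes together, with overlapping intervals in the pooled list. Promoter regions were in the top 1000 in 4.49% of cases on III and 3.18% on the other autosomes, introns in 3.84% and 2.54%, and intergenic regions in 3.68% and 2.11%. Chromosome I, however, had 5.74% (4.12 to 7.77) for promoters, above III, with 2.82% for introns and 2.72% for intergenic regions. Its promoter share was below that of III in replicate 1 (4.35% and 4.98%) and above it in replicate 2 (4.60% and 3.93%). For intergenic regions III and the other autosomes were nearly equal in replicate 1, at 2.13% and 2.11%. In 5′ UTRs the pooled count was 0 of 49 on III, against 11 of 207, with 6 of these 11 on I. Replicate 1 gave 3 of 46 and 11 of 221 in 5′ UTRs, and replicate 2 gave 2 of 49 and 11 of 191. In 3′ UTRs the pooled count was 3 of 146, against 14 of 569. In non-coding exons it was 2 of 53 on III, against 2 of 359. Replicate 1 gave 4 of 60 and 1 of 364 there, and replicate 2 gave 6 of 61 and 4 of 345. The parts of GC and class in the density of top regions on III were not tested.

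Nearly all top regions of III had a counterpart in each replicate, but few ranked in the top 1000 of both. A counterpart was the nearest summit within 200 bp. It was found in both replicate lists for 2114 of 4585 regions of III (46.1%, 44.7 to 47.6), against 43.4% on the other autosomes, and for 223 of 227 top regions (98.2%), against 97.6%. By rank bin the share on III was 100%, 97.7%, 91.5%, 71.8% and 25.6%. The pooled list was made from both replicates, so a high pooled rank already favours a counterpart in each. These shares are therefore not independent evidence of agreement. Of the 227 top regions of III, 47 ranked within the top 1000 of both replicates (20.7%), against 120 of 676 on the other autosomes (17.8%). Another 70 ranked there in replicate 1 alone, 77 in replicate 2 alone and 33 in neither. Over the 2114 matched regions of III, Spearman's rho of signal between replicates was 0.209, and over 8853 matched regions of the other autosomes it was 0.206. Among matched top regions alone it was -0.298 on III and -0.292 on the other autosomes. Those regions were selected on the pooled signal, so these 2 values do not measure agreement either.

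Ranks near the thresholds show how little separates regions on either side. The last IDR regions of III had pooled signals of 108.32 (rank 180) and 108.29 (rank 181), and the next regions below had 107.96 (rank 187) and 107.87 (rank 189). The region of rank 189, in zer-1, stood at rank 14 in replicate 1 and 7249 in replicate 2. At the limit of the top 1000, the region of rank 997, in mdt-29, had a signal of 87.9 and stood at rank 141 in replicate 1 and 25177 in replicate 2. The region of rank 1005, in lin-36, had 87.8 and stood at 10155 and 1593. The list itself ended on III at rank 29993 with a signal of 42.2, so a region's absence does not mean a signal of 0.

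The 20 highest regions of III had pooled signals from 124 to 162, against 204 for the highest region of the genome. A protein-coding gene contained the summit in 18 of them. By class, 10 summits were in coding exons, 6 in promoter regions, 2 in introns, 1 in a 3′ UTR and 1 in a non-coding exon. GC ranged from 27.9% to 58.7% and was over 50% in 7. The right arm held 9 of the 20, the centre 7 and the left arm 4. A coding gene was in reach of 11. Ranks within the top 182 were reached by 16 in replicate 1, by 14 in replicate 2 and by 10 in both.

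Those 10 were the only regions of III within the top 182 of both replicates, and 5 of them lay in coding exons. They lay in hpo-28, zip-2, atp-2, eif-3.D, aakg-1, rpl-3, Y47D3A.1, far-8, prp-8 and T28D6.3. The other autosomes together had 15 such regions among their 20422, against the 10 among 4585 on III. Of the 15, 14 passed IDR, and the lowest had a pooled rank of 19520. Replicate ranks here are those of the nearest summit, which neighbouring pooled regions can share, so the 15 may not be separate sites. All 10 on III passed IDR, and the lowest had a pooled rank of 53.

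The highest region of III, in the intron of hpo-28, had a pooled signal of 162, and signals of 76.6 in replicate 1 and 93.3 in replicate 2. Its ranks were 4, 12 and 3. The gene is named for hypersensitivity to a pore-forming toxin, and no gene's 5′ end was in reach of this summit. The region in zip-2, a bZIP transcription factor gene of the response to infection, had signals of 152, 74.1 and 81.1 and ranks of 5, 17 and 15. Both regions were AT-rich and stood high in each replicate.

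Regions in atp-2, aakg-1 and vha-2, genes of energy metabolism and proton transport, lay in coding exons. The grouping of the 20 by role was made after their ranks were seen. In atp-2, which encodes the beta subunit of mitochondrial ATP synthase, the signal was 143 pooled, 66.6 in replicate 1 and 80.7 in replicate 2, with ranks 11, 39 and 16. Its summit was 1310 bp downstream of the atp-2 5′ end and 828 bp upstream of prmt-5, an arginine methyltransferase gene. In aakg-1, a gene for a gamma subunit of AMP-activated kinase, signals were 135, 71.3 and 75.6 and ranks 24, 21 and 27. This is the sequence of 55.7% GC shown above, 12410 bp downstream of the 5′ end. The region in vha-2, a proton pump subunit gene of the V-ATPase, had signals of 141, 51.3 and 76.8 and was less even, with ranks 13, 446 and 25.

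Others of the 20 lay in genes of RNA processing and translation. The summit in eif-3.D, a subunit gene of the initiation factor eIF3, ranked 17 pooled, 72 in replicate 1 and 85 in replicate 2, and lay 123 bp downstream of the 5′ end. That in rpl-3, of the large ribosomal subunit, ranked 37, 52 and 23, 290 bp downstream. That in prp-8, the central spliceosome protein, ranked 51, 58 and 51. These 3 regions were high in both replicates. Those in larp-1, a La-related RNA-binding protein gene (36, 61 and 426), and ubl-1, a fusion of a ubiquitin-like protein and a small subunit ribosomal protein (55, 233 and 117), were lower in 1 replicate. The ubl-1 summit lay in the 3′ UTR and was the other of the 20 with TAATTA nearby.

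Genes of 3 chromatin regulators held regions in the right arm and over 50% GC. The regions in spe-6 and aakg-1, genes of other roles, had both traits too. Of all 20 regions, 9 were in the right arm and 7 were over 50% GC, so neither trait is particular to this group. The region in ssl-1, which encodes an ATPase of the Swi2/Snf2 family, had signals of 135 pooled, 77.8 in replicate 1 and 56.6 in replicate 2, with ranks 25, 11 and 377. The region in set-16, an MLL-type histone methyltransferase gene, ranked 52, 20 and 201. That in mrg-1, a chromodomain protein gene, ranked 44, 784 and 19. Each was far higher in 1 replicate than in the other, and not always in the same one.

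Among the 20, the replicate ranks lay farthest apart at a pseudogene. The region of pooled rank 21 lay in a non-coding exon of the pseudogene WBGene00012975 and had a signal of 136. Its rank was 34 in replicate 1 but 26916 in replicate 2, where its counterpart's signal was 24.4. The region of rank 33 lay in the same pseudogene, 38 bp downstream of its 5′ end, and within sup-35, the toxin gene of a maternal-effect toxin and antidote pair. Its replicate ranks were 8 and 2826. Those were the only 2 of the 20 that were outside the top 1000 of a replicate. The region of rank 31, at the non-coding RNA gene Y55B1BR.7, was the one with the most repeated sequence, since 31.6% of its 36-base words occurred elsewhere in the genome. Its ranks were 67 and 260. The pseudogene region of rank 21 had no repeated 36-base word, and that of rank 33 had 8.81%. In all, 209 of the 227 top regions of III (92.1%) held no repeated word, against 90.5% on the other autosomes.

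The rest of the 20 were in genes of other roles. The regions in far-8, a fatty acid and retinol binding protein gene, and Y47D3A.1, with the DNA polymerase alpha gene pola-1 also in reach, ranked 48 and 47. Their replicate ranks lay between 109 and 156. T28D6.3 held the region of rank 53, at 93 and 126. The spe-6 region, in a kinase-like gene of sperm development, had signals of 143, 51.9 and 78.7 and ranks of 10, 401 and 21.

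**Figure D5:**
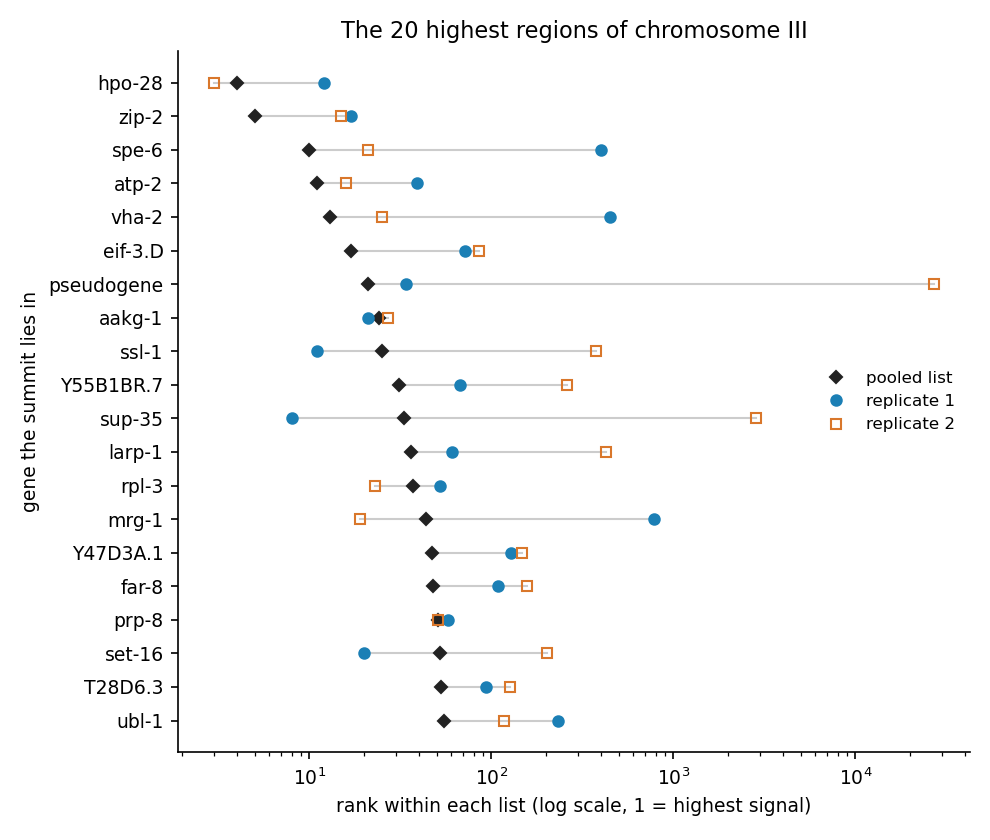
Rank of the 20 highest regions of chromosome III (vertical axis, named by the gene the summit lies in) in the pooled list and in each replicate list (horizontal axis, log scale, 1 is the highest signal). Most replicate ranks are within 1000; the pseudogene region (34 and 26916) and the sup-35 region (8 and 2826) are the exceptions.

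Several genes of III held more than 1 high region. Over pooled ranks up to 3000, ssl-1 had 5 summits in 30156 bp, of which 4 were in the top 1000. All 5 were in coding exons, at ranks 25, 149, 284, 460 and 1995. In replicate 1 their counterparts stood at 11, 289, 216, 12979 and 11, since the summits of rank 25 and 1995 have the same counterpart there. In replicate 2 they stood at 377, 198, 2657, 28 and 4522. The summits of rank 25 and 149 were the only ones of the 5 that both replicates ranked within their top 1000. In set-16, 4 summits lay in coding exons, 3 of them in the top 1000. The best, of rank 52, stood at 20 and 201 in the replicates.

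Other genes with repeated high regions included prp-8, with 3 summits in the top 1000 in 8338 bp, and pqn-41, which encodes a glutamine-rich protein, with 4 summits up to rank 3000 in introns. The aakg-1 gene had 3 summits up to rank 3000, Y56A3A.7 had 3, larp-1 had 3, sup-26, an RNA-binding protein gene, had 3 in 4029 bp, and ncl-1, which limits the size of the nucleolus, had 3. The longest of the 10 genes, cox-6B at 87197 bp, had 4 summits up to rank 3000 and none in the top 1000. Per 10 kb of gene the 10 genes ranged from 0.459 summits (cox-6B) to 7.45 (sup-26).

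Ribosomal protein genes of III were often in reach of a top region. Of 18 on III, 6 were in reach (33.3%, 13.3 to 59.0), read against the 5.42% of all coding genes of III. On the other autosomes 13 of 59 were (22%, 12.3 to 34.7), and the intervals overlap. The list had been chosen with earlier results of these data known, so its count is not independent evidence. The lists of replicates 1 and 2 gave 5 and 4 of 18. Next after rpl-3 was rpl-21, with pooled rank 83 and replicate ranks of 33 and 1389. Then came rps-29 (rank 373, at 750 and 648), rps-21 (374, at 1234 and 669), rpl-9 (375, at 130 and 3589) and rpl-16 (639, at 316 and 8959). Only rpl-3 and rps-29 were within the top 1000 of both replicates. In all, 14 of the 18 genes were in reach of some pooled region, or 77.8%, against 57.9% of all coding genes of III and 74.6% of the ribosomal protein genes of the other autosomes.

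Of the snoRNA and snRNA genes, whose small RNAs act in the nucleolus or the spliceosome, 11 of 67 were in reach on III (16.4%, 8.49 to 27.5), against 20 of 372 on the other autosomes (5.38%, 3.31 to 8.18). Over genes of every type on III the background was 4.79%. Many of these small RNA genes are encoded inside or beside other genes. The replicate lists each gave 12 of 67. Of the 11 genes, 8 lie within genes named above or share their summit. K02F3.15 lies within zip-2, Y111B2A.36 and Y111B2A.35 lie within ssl-1, C50C3.13 and C50C3.14 within prp-8, H06I04.8 within ubl-1, and B0412.6 and B0412.7 share the rps-29 summit. The others were Y43F4B.11 (rank 164), Y49E10.36 (rank 231) and ZK632.18 (rank 484).

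Other housekeeping lists had few members on III, and their counts are to be read against the 5.42% of all coding genes there. The splicing list had 3 of 16 in reach (18.8%, 4.05 to 45.6), against 9 of 44 on the other autosomes (20.5%). Its members in reach on III were rsp-3, an SR protein gene (rank 236, at 1608 and 282), prp-19 (rank 456, at 7984 and 332) and rnp-5 (rank 807, at 21518 and 87). All 3 stood higher in replicate 2, and replicate 1 alone gave 0 of 16. The list also holds prp-8, whose summit of rank 51 (at 58 and 51) lay 601 bp downstream of the 5′ end, too far to count. The proteasome list had 2 of 8 (25%, 3.19 to 65.1), against 3 of 25 on the other autosomes (12%). They were the core subunit gene pbs-6 (rank 362, at 7961 and 72) and the lid subunit gene rpn-3 (rank 396, at 8035 and 41), again higher in replicate 2. The translation factor list had 1 of 7, eif-3.D (14.3%, 0.361 to 57.9), against 3 of 30, and the V-ATPase list had 1 of 3, vha-2, against 0 of 14. No gene was in reach among 6 aminoacyl-tRNA synthetases, 7 CCT and DnaJ chaperones, 9 mitochondrial respiratory genes, 5 kinesins, 3 histones and 12 collagens. On the other autosomes these lists had 1 of 26, 4 of 28, 1 of 27, 0 of 12, 0 of 65 and 0 of 117 in that order. The atp-2 summit of rank 11 lay too far into the gene to count. So did the summits of rank 164 in klp-19, a kinesin gene, and of rank 231 in his-72, a histone gene. Those 2 summits were counted above for snoRNA or snRNA genes.

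For tRNA genes 4 of 64 were in reach on III (6.25%, 1.73 to 15.2), near the 4.79% of all gene types. Of 27 microRNA genes 2 were, cel-mir-86, within the intron of Y56A3A.7 (rank 232, at 1209 and 417), and cel-mir-4814 (rank 946, at 2237 and 494).

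Lists of regulators, neuronal genes and tissue markers on III had counts near the background or too few members to be read against it. Of 17 homeobox genes 1 was in reach (5.88%, 0.149 to 28.7), which is near the 5.42% background. It was ceh-20, the Pbx-type partner of Hox proteins, with a summit 247 bp upstream of its 5′ end at 25.4% GC. That summit ranked 576 pooled, 1660 in replicate 1 and 5255 in replicate 2. Of 8 nuclear hormone receptor genes 1 was in reach, nhr-239 (rank 702, at 10606 and 304), or 12.5% (0.316 to 52.7). No gene was in reach among 12 neuropeptide genes, 2 pan-neuronal genes, 2 germline genes and 1 intestine gene, and no body wall muscle gene of the list lies on III.

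All 6 Hox genes of the worm lie on III, and none had a top 1000 summit in reach, which among 6 genes cannot be told from the 5.42% of all coding genes of III. Hox genes set cell fates along the body axis. The posterior gene nob-1 held the best summit inside a gene of this family, at pooled rank 2321, with best ranks of 6728 and 4229 in the replicates' own lists. The best ranks inside mab-5, egl-5 and php-3 were 6416, 10955 and 17289. For ceh-13 a summit of rank 26277 was in reach and none lay inside, and for lin-39 the pooled list had none in either place, although the replicate lists had summits inside it at ranks 14982 and 18381.

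Other genes looked up in any case had low ranks. The best summit inside unc-86, a POU homeodomain gene needed for touch receptor neurons, ranked 8044, and the best inside it in the replicates' own lists ranked 9047 and 22095. In unc-119, which carries the strain's mutation, the best ranked 20244, and the best in the replicates' own lists 22032 and 6835. In glp-1, the Notch receptor gene of the germline, it ranked 13013. For mec-14, expressed in touch receptor neurons, the best summit inside ranked 28137, and the nearest top 1000 summit was 881 bp away, the one of rank 374 counted for rps-21.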

How the data were processed

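ALR-1-GFP ChIP-seq was measured in 2 biological replicates of whole L1 larvae. The deposited files are region lists of fixed width, 364 bp in the pooled and IDR lists, 344 bp in replicate 1 and 384 bp in replicate 2. Per the deposited text files, each replicate's list came from its alignments and a control file, and the pooled list from both alignments. Per the labels, coordinates are in ce11. Which aligner, peak caller, settings or IDR threshold were used is not stated in the sources used here. The deposited signal value is the authors' and was compared only within a list. The 182 IDR regions are exactly the 182 highest of the pooled list.

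Regions were placed on Ensembl release 115 genes and the RefSeq genome of the same assembly (WBcel235), from which the printed sequences were read. Lists were 22 in number. Named items are the 20 highest regions of III, list members in reach of a top 1000 summit, the 10 genes with the most summits up to rank 3000, and genes looked up in any case. Members, lists and rules were chosen with earlier results of these data known. With 1 group, no test was made. Nothing was imputed or dropped. Matching was tested on simulated data. Alternatives covered each replicate alone, the number of top regions, centre, class order, GC window, matching distance and gene window. The tools were matplotlib 3.10.9, pandas 2.3.3, scipy 1.17.1 and numpy 2.4.6 under Python 3.11.15.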

Additional observations from a re-analysis of the deposited data

How the results depend on the processing

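Of 33 alternatives to 8 results, 19 left the value within its interval or spread. The share of III in the top 1000, 22.7%, was 26.2% in the top 500, 19.8% in the top 2000 and 28.6% in the IDR list, and 20.3% to 22.4% in the lists of single replicates. The share of III in all regions, 15.3%, was 14.8% to 15.7% in those lists. The centre's share of top regions, 45.4%, was 34.4% with the centre as the middle 40% of the length and 56.4% as the middle 60%, as the definition itself brings about, and 49.1% to 50.7% in single replicates. The coding exon share stayed within its interval under each alternative. Mean GC, 41.2%, was 40.3% in the top 2000 and 40.5% to 41.3% in single replicates. Counterparts in both replicates, 46.1% of regions of III, were 35.1% at 100 bp and 54% at 500 bp, and among top regions, 98.2%, they were 91.2% and 99.6%. The 143 coding genes in reach of a top summit were 24 when reach was narrowed to 500 bp before and 100 bp after the 5′ end (0.909% on III against 0.596% on the other autosomes), 131 to 136 in single replicates and 176 with a summit inside the gene. No paired analysis was possible because there is only 1 group. Unknown depth and 2 replicates limit how firmly single ranks can be read.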

Other observations

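Top regions of III lay close together about as often as those of I and IV. On III, 89 of 227 top regions (39.2%) had another top 1000 summit within 10000 bp, against 41.0% on I, 36.3% on IV, 22.4% on V and 11% on II. The median gap between neighbouring top summits was 34.4 kb on III, 42.6 kb on I, 46.8 kb on IV, 83.6 kb on II and 91.7 kb on V. This is the order of their densities per Mb.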
